A study of Homo sapiens with 6 samples.

Results

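Open chromatin regions recorded after 6 h and after 24 h of thyroid hormone were compared in the human thyroid line Nthy-ORI, normal follicular epithelium that was immortalised. The regions are strict peaks, chosen from the lists of both times by 2 conditions: a −log10 irreproducible discovery rate (IDR) of at least 2, which is an IDR of at most 0.01, and a position on chromosomes 1 to 22 or X. They numbered 46458 of the 80149 peaks deposited for the series, of which 3881 were recorded at 6 h and 42577 at 24 h. A 6 h peak was early-kept when it overlapped a strict 24 h peak by at least 50% of the shorter of both, and early-only when it did not. A strict 24 h peak with no such 6 h partner was late-only. There were 2059 early-kept, 1822 early-only and 40499 late-only peaks, and the remaining 2078 peaks of the 24 h list were the partners of early-kept peaks.

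Accessible DNA was tagged by the Tn5 transposase, which inserts sequencing adapters where chromatin is open (ATAC-seq), in 50000 cells per sample. Cells of every group first spent 24 h in medium stripped of hormone and then received 10 nM T3, the active thyroid hormone, for 6 h or for 24 h, or the NaOH vehicle, labelled 6 h. Each group had 2 samples, which the labels do not tie to separate cultures, and 1 deposited peak list made from both. No vehicle group at 24 h was analysed here, so hormone and time in culture cannot be told apart between both T3 times.

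T3 acts through nuclear receptors (TRα and TRβ, encoded by THRA and THRB) that sit on DNA with RXR partners and exchange corepressors for coactivators when hormone binds. Remodelling complexes such as SWI/SNF slide or evict nucleosomes at the sites that such factors occupy. In ATAC-seq data from many cell types, starts of actively transcribed genes give strong peaks, while distal elements differ more between cell states.

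The lists differed in length and in how closely replicates matched, and no read depth is known for them. Strict peaks made up 42.5% of the vehicle list (2894 peaks), 32.04% of the 6 h list and 70.6% of the 24 h list, all on chromosomes 1 to 22 and X. They covered 4.38, 5.52 and 34.2 Mb. The replicate summits lay a median of 169 bp apart in early-kept, 216 bp in early-only and 38 bp in late-only peaks. In the 24 h partners of early-kept peaks the median was 41 bp. With 1 list per group no test between conditions exists, so shares carry exact Clopper-Pearson 95% intervals that cover counting error only. The share of 24 h peaks without a 6 h partner moves with the length of each list: with the 24 h list held to its 3881 strongest peaks, 490 peaks at 6 h were early-kept and 3391 early-only. Signals are the authors' values, with no stated normalisation, and were read only within 1 list.

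The sequences before the starts of 8 genes are examples from each class of peak and do not stand for the whole class. They were taken from RefSeq (GRCh38.p14) and give the 100 bases before the annotated start, 5′ to 3′ on the gene's own strand. Capitals mark matches to common promoter motifs on either strand: the CCAAT box (CCAAT), the GC box (GGGCGG) bound by SP1-type factors, and the site of the regulator NRF1 (GCGCA, any base, GCGC). MTR, B3GALNT2 and PAX8 had early-kept peaks and are shown as the 2 strongest with no vehicle partner and replicate summits at most 100 bp apart, and a thyroid lineage gene. MTR encodes methionine synthase, B3GALNT2 a glycosyltransferase that modifies dystroglycan, and PAX8 a paired-box regulator of thyroid development.
MTR (chr1:236795181-236795280, plus strand): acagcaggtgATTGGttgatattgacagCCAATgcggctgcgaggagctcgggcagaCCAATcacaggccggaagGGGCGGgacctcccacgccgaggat
B3GALNT2 (chr1:235504453-235504552, minus strand): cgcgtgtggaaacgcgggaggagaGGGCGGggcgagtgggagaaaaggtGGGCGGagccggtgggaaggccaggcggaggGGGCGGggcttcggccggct
PAX8 (chr2:113278922-113279021, minus strand): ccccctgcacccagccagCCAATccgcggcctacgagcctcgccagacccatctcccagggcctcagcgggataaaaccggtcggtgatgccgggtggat

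SLC22A12, the urate transporter URAT1 of the kidney, and CLDN18, a tight junction claudin of stomach and lung, had early-only peaks. They are shown as the early-only start peaks with close replicate summits that were first and sixth by signal. Neither stretch holds a match, but that of TGM3, which was second by signal, holds a CCAAT box. Both genes shown had a start peak in the whole deposited 24 h list, as 5 of the 25 early-only genes did.
SLC22A12 (chr11:64591120-64591219, plus strand): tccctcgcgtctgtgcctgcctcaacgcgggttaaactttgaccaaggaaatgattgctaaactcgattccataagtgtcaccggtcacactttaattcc
CLDN18 (chr3:137998716-137998815, plus strand): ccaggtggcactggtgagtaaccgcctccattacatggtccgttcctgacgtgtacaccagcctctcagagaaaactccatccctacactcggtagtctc

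RALGAPA2, a subunit of a GTPase-activating complex for Ral, HEMK2, a protein methyltransferase, and SAMTOR, the S-adenosylmethionine sensor of the mTORC1 pathway, had late-only peaks among the strongest at gene starts. Their stretches hold GC boxes, overlapping NRF1 matches, and CCAAT boxes with a GC box, in that order.
RALGAPA2 (chr20:20712645-20712744, minus strand): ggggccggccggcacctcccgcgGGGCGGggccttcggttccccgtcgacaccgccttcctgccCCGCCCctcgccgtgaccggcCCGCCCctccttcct
HEMK2 (chr21:28885368-28885467, minus strand): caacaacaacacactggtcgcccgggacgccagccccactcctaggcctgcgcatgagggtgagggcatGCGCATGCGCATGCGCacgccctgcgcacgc
SAMTOR (chr7:112939876-112939975, minus strand): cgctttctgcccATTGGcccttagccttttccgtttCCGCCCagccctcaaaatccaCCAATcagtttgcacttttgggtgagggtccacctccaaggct

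Early-kept peaks made up 53.1% of the strict 6 h list (95% interval 51.5 to 54.6), and early-only peaks 46.9% (45.4 to 48.5). Seen from the 24 h list, 4.88% of peaks (4.68 to 5.09) had a 6 h partner and 95.1% (94.9 to 95.3) were late-only. Many of these absences depend on the threshold. Of the early-only peaks, 349 (19.2%) had a partner in the whole deposited 24 h list, and of the late-only peaks 2910 (7.19%) had one in the whole 6 h list. The peaks nearest the threshold had −log10 IDR values of 2.00014 inside and 1.99998 outside in the 6 h list, and 2.00002 and 1.99997 in the 24 h list. Within 0.1 of it lay 537 peaks above and 652 below at 6 h, and 1849 and 1972 at 24 h.

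Peaks of the 6 h list were wider than late-only peaks. Median widths were 1249 bp for early-kept, 1443.5 bp for early-only and 691 bp for late-only peaks. The 24 h partners of early-kept peaks had a median width of 1065.5 bp, so width differed between the lists at shared places too. The highest IDR value the method gives (5 on the −log10 scale) was held by 154 early-kept peaks (7.48%), 3 early-only peaks (0.165%) and 10224 late-only peaks (25.2%). Inside the 6 h list, early-kept peaks stood at a median percentile of 58.0 by summed signal and early-only peaks at 43.4. Inside the 24 h list, partners of early-kept peaks stood at 69.4 and late-only peaks at 49.2.

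Replicates differed in the same way in every class. The deposited signal in the first and second replicate column had medians of 5.78 and 7.03 for early-kept, 5.47 and 6.47 for early-only, and 7.08 and 8.02 for late-only peaks. The second column was higher in 70.2% of early-kept, 68.3% of early-only and 68.9% of late-only peaks.

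The classes lay in different places. A gene start is here the start of a protein-coding gene in RefSeq, and a peak is at it when the mean of its replicate summits lies within 1 kb. Of 19970 genes, 15811 have a known start, and for the other 4159 either boundary of the gene was taken. At gene starts lay 546 early-kept peaks (26.5%, 24.6 to 28.5), 28 early-only peaks (1.54%, 1.02 to 2.21) and 9312 late-only peaks (22.99%, 22.6 to 23.4). The strict vehicle list had 66 of its peaks there (2.28%).

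Away from starts, the early lists reached into DNA far from genes. Inside genes lay 19.6% of early-kept, 31.7% of early-only and 37.6% of late-only peaks. Between genes and over 100 kb from a start lay 33.8%, 42.3% and 13.8%. Over 1 Mb from any start lay 408 early-kept (19.8%), 352 early-only (19.3%) and 292 late-only peaks (0.721%).

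Early-kept peaks were a mixture of a set shared with vehicle and a set that was not. Any deposited vehicle peak was a partner for 912 of them (44.3%, 42.1 to 46.5), for 448 early-only peaks (24.6%) and for 733 late-only peaks (1.81%). The 1147 early-kept peaks without a vehicle partner lay at gene starts in 44.6% of cases (41.6 to 47.5), at a median of 7191 bp from a start, and 9 of them (0.785%) lay over 1 Mb away. The 912 with a vehicle partner lay at starts in 3.84% of cases (2.69 to 5.30) and over 1 Mb away in 43.8% (40.5 to 47.0). Early-only peaks lay at starts rarely in both subsets, in 1.82% of the 1374 without a vehicle partner and 0.670% of the 448 with one.

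**Figure D1:**
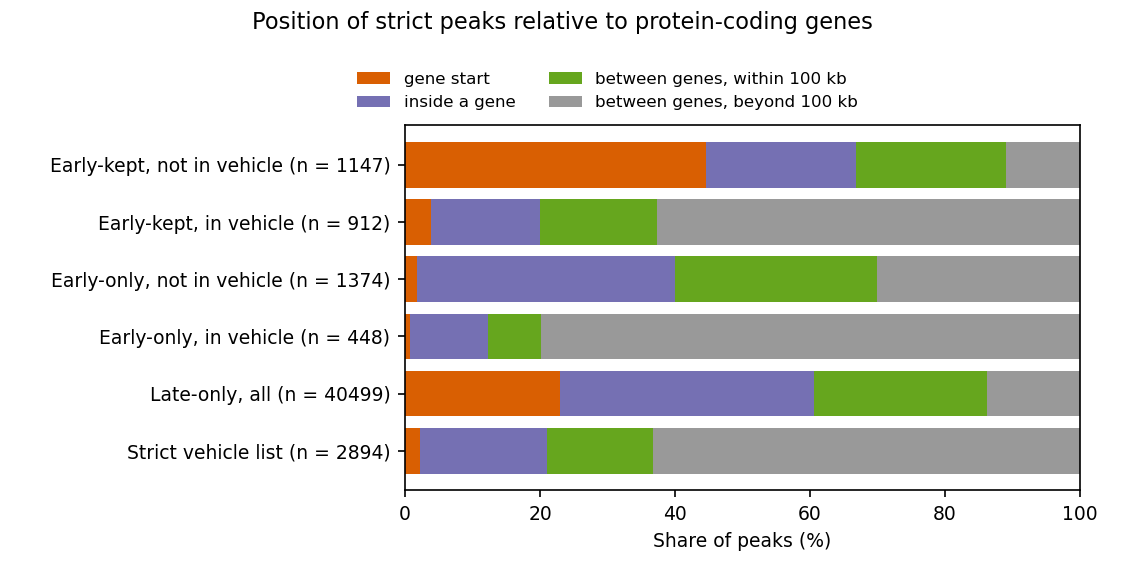
Share of strict peaks (%, horizontal axis) in 4 positions relative to protein-coding genes, for early-kept and early-only peaks split by the presence of a vehicle partner, for all late-only peaks and for the strict vehicle list. Early-kept peaks without a vehicle partner have the widest gene-start segment, at 44.6%, and early-only peaks with one the widest segment beyond 100 kb, at 79.9%.

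Whether a 6 h peak was found again at 24 h differed by position. Of 574 strict 6 h peaks at gene starts 546 were kept (95.1%, 93.03 to 96.7), and of 3307 elsewhere 1513 (45.8%, 44.0 to 47.5). The share was 41.2% inside genes, 48.1% between genes within 100 kb of a start and 47.4% farther out, so these 3 positions lay close to each other. With replicate summits at most 100 bp apart in the 6 h list, 93.2% of peaks at starts and 56.0% of peaks elsewhere were kept. Strict 24 h peaks themselves were dense at starts: 54.2% of all 19970 genes had one there, while the whole strict list covered 34.2 Mb. The share of partners to be met by position alone was not computed for either place.

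Away from starts, the kept share was highest among the strongest peaks of the 6 h list. In 10 equal classes by summed signal, the share kept away from starts was 34.4% to 40.2% in the 7 weakest classes, then 49.1%, 55.6% and 90.1% (86.6 to 92.9) in the strongest. At starts it was between 90.3% and 98.6% in the 9 weaker classes, and 5 of 6 peaks in the strongest. Sharing with vehicle moved with this: away from starts, 66.3% (63.7 to 68.9) of 1322 peaks with a vehicle partner were kept and 32.04% (29.99 to 34.1) of 1985 without one. At starts the shares were 92.1% of 38 and 95.3% of 536.

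**Figure D2:**
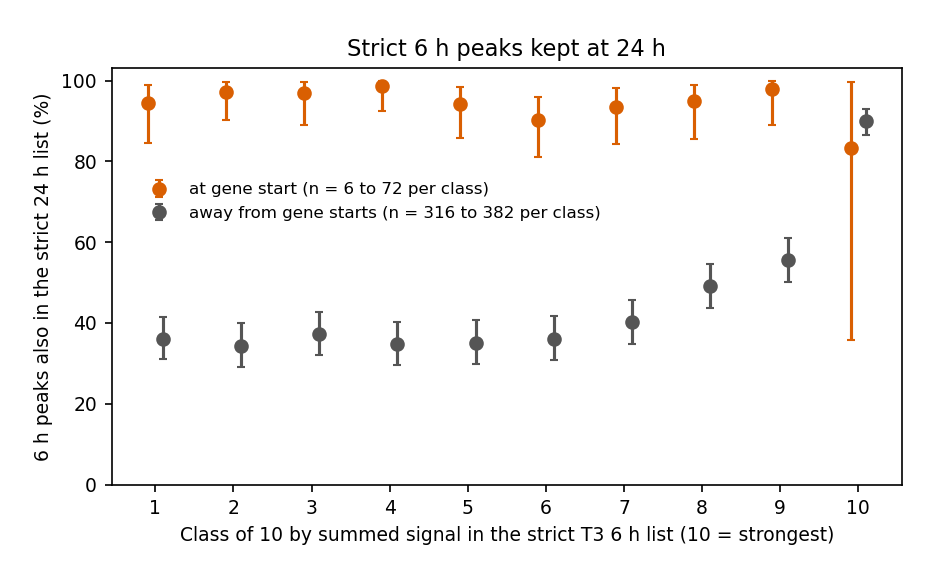
Share of strict 6 h peaks with a strict 24 h partner (%, vertical axis) in 10 equal classes by summed signal within the 6 h list (horizontal axis), for peaks at gene starts and away from them, with exact 95% intervals. Peaks at starts stay above 80% in each class, and peaks elsewhere stay near 35% to 40% until the 3 strongest classes, where they reach 90.1%.

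Gene starts were placed differently in the signal order of each list. In the 6 h list the share of peaks at starts lay between 12.4% and 18.6% in the 9 weaker classes, with no steady trend, and was 1.55% in the strongest. In the 24 h list it climbed from 10.2% to 40.96%. From the 24 h side, peaks at starts had a 6 h partner in 0.924% of cases in the weakest class and 13.3% (11.7 to 14.99) in the strongest one, and peaks elsewhere in 2.59% and 11.3%.

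Early peaks were crowded in a few stretches of the genome. In windows of 1 Mb with at least 5 peaks of a class lay 598 early-kept peaks (29.0%) in 43 windows, and 549 of these (91.8%, 89.3 to 93.9) had a vehicle partner while 11 were at gene starts. For early-only peaks the same count gave 350 peaks (19.2%) in 27 windows, 282 of them (80.6%) with a vehicle partner. The fullest window, chr1:123000001-124000000, held 63 early-kept and 43 early-only peaks, and its neighbour chr1:124000001-125000000 held 60 and 27. Windows on chromosome 13 (chr13:17000001-18000000, 47 early-kept) and chromosome 10 (chr10:40000001-41000000, 39) came next. These windows are in or beside centromeres, whose repeats are hard to map, and how reads were mapped there was not tested. Late-only peaks were spread: the fullest window, chr11:65000001-66000000, held 52, and the median window with any held 14.

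Chromosomes differed accordingly. Chromosome 1 held 14.9% of the strict 6 h peaks and 10.7% of the 24 h peaks, chromosome 7 9.17% and 6.09%, and chromosome 13 5.49% and 2.78%. The converse held for chromosome 3, with 3.20% and 5.61%. The kept share of 6 h peaks was highest on chromosomes 4 (64.2%, 54.3 to 73.2) and 17 (64.1%, 56.6 to 71.1), and 45.1% (38.3 to 52.0) on chromosome 20.

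At the level of genes, the 6 h list was nearly contained in the 24 h list. A strict 6 h peak was at the start of 700 genes (3.51% of 19970) and a strict 24 h peak at 10829 (54.2%). Of the 700, 666 (95.1%, 93.3 to 96.6) also had one at 24 h. An early-kept start peak was found for 672 genes (3.37%). An early-only start peak with no strict 24 h peak there was found for 25 genes (0.125%), and a late-only one with no strict 6 h peak for 10153 genes (50.8%). Neither list had a peak for 9107 genes (45.6%), and 13 genes had a start peak but met none of these 3 definitions. Without the strict threshold, 2077 genes (10.4%) had any 6 h start peak and 11873 (59.5%) any 24 h one. Any vehicle start peak was found at 238 genes (1.19%), among them 40 early-kept, 3 early-only and 158 late-only genes. A minority of late-only genes were not empty at 6 h: 1302 of them (12.8%) had a deposited 6 h start peak that missed the strict threshold.

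In median base composition, starts with early-kept and late-only peaks were closer to each other than to those with early-only peaks. Over the window from 250 bases before to 50 after the start, the median G+C content was 63.0% for 586 early-kept, 65.7% for 8408 late-only and 45.3% for 18 early-only genes with a known start, against 57.0% for genes with no peak and 62.7% for all. The observed over expected ratio of CpG dinucleotides, which is high in CpG islands, was 0.844, 0.855 and 0.393 in that order. In 4 equal classes by G+C, early-kept peaks were at 1.69%, 5.64%, 5.34% and 2.15% of genes, so that the richest class fell back. Late-only peaks were at 23.7%, 56.0%, 67.9% and 65.0%. Of the 18 early-only genes, 14 were in the class poorest in G+C.

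Several motifs were more frequent at starts with a peak than at starts without one. Each motif was searched on both strands of the same window, and a match is a string of letters, not a bound site. Starts without a peak were also poorer in G+C (median 57.0%) than early-kept (63.0%) and late-only ones (65.7%). Motif shares were not compared at like G+C content. The ETS core (CCGGAAGT) was in 11.8% of early-kept, 9.79% of late-only and 1.28% of starts without a peak, with 6.19% of all 15811. NRF1 matches were in 13.3%, 12.8% and 2.96% (8.58% of all), YY1 matches (ANATGGCG) in 7.85%, 9.73% and 2.25% (6.43%), and cyclic AMP response elements (TGACGTCA) in 3.75%, 3.57% and 1.296% (2.59%). GC boxes were in 65.5%, 72.9% and 40.1% (58.5%), and E-boxes (CACGTG) in 9.04%, 10.7% and 6.67% (8.87%). CCAAT boxes were in 45.9% (41.8 to 50.04) of early-kept starts and 38.1% (37.0 to 39.1) of late-only ones, against 36.3% of all.

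The AP-1 site, the receptor half-site and the TATA box were more frequent at starts without a peak than at early-kept or late-only starts. These shares, too, were not compared at like G+C content. The AP-1 site (TGANTCA), bound by FOS and JUN dimers, was in 4.44% of early-kept, 3.996% of late-only and 8.05% of starts without a peak (5.76% of all). The thyroid hormone receptor half-site (AGGTCA) was in 9.73%, 9.06% and 15.1% (11.7% of all). The full element with a pair of half-sites in direct repeat, 4 bases apart, was in 0 early-kept and 0 late-only windows and in 1 of all 15811, so this window gives no count to compare. TATA boxes (TATAAA) were in 3.58%, 5.28% and 15.5% (9.64% of all). The 18 early-only windows held a TATA box in 3 cases, a half-site in 2, a CCAAT box in 9 and an ETS core in 0, whose exact interval reaches 18.5%.

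Early-kept start peaks were more often shared by a pair of genes. A peak within 1 kb of starts on both strands was found in 21.4% of 477 early-kept peaks at known starts (17.8 to 25.3), in 9.98% of 7734 late-only ones (9.32 to 10.7) and in 0 of 19 early-only ones. Within the strongest class of 10 of the 24 h list, 45 of 207 partners of early-kept peaks (21.7%, 16.3 to 27.99) and 209 of 1322 late-only peaks (15.8%, 13.9 to 17.9) were of this kind, and these intervals overlap. The median offset of the summit from the start, negative before it, was -64.75 bp in early-kept and -55.5 bp in late-only pairs of peak and gene. In the 19 early-only pairs it was 322.5 bp.

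**Figure D3:**
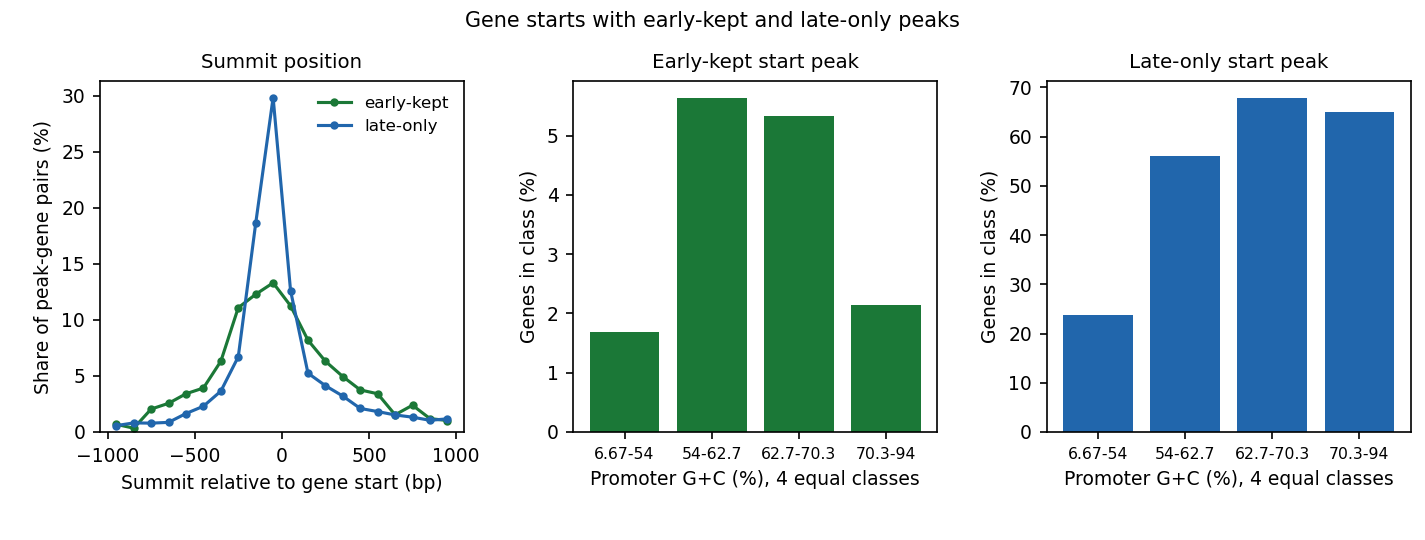
Left, share of pairs of peak and gene (%) by the distance of the summit from a known gene start in bp, negative before the start, for early-kept and late-only peaks. Middle and right, share of genes (%) with an early-kept or a late-only start peak in 4 equal classes by promoter G+C content. Both summit curves peak just before the start, the early-kept one broader, and the early-kept share falls to 2.15% in the class richest in G+C where the late-only share is 65.0%. The bar axes start at 0 and differ in scale.

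The strongest early-kept start peaks with replicate summits at most 100 bp apart were in part those of the vehicle list. LOC124905351 (chr3:10005-10713) led with replicate signals of 13.7 and 16.3, and LOC124905413 (chr5:72355-74645) had 5.97 and 11.4. SPATC1L (chr21:46184429-46185068) had 9.30 and 8.22. A single peak at chr9:100098053-100100019 served ERP44, a chaperone of the endoplasmic reticulum, and INVS, the ciliary protein inversin, with 10.5 and 6.97. These 4 peaks had vehicle partners. The stretch before SPATC1L is an exact tandem copy, the same 47 bases starting at positions 1 and 54 of the 100 shown, and holds none of the motifs searched.
SPATC1L (chr21:46184460-46184559, minus strand): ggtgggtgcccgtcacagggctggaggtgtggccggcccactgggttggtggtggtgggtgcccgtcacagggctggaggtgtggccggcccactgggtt

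MTR and B3GALNT2 had no vehicle partner. The MTR peak (chr1:236795015-236796090) had replicate signals of 5.57 and 12.4, a sum of 17.96 at percentile 91.1 of the 6 h list. The B3GALNT2 peak (chr1:235504346-235505613) had 6.42 and 9.02. The replicates of MTR were farther apart than those of B3GALNT2, and both peaks contain the stretch printed for their gene.

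Early-only start peaks were few, and several sat at genes of restricted expression. Summed signals of the 25 genes ran from 10.6 to 17.6, with a median of 12.2. They were DNASE2B, SLC22A12, SYT10, HCAR3, OR3A1, OR4D1, ANKRD30BL, DEFB127, DEFB129, TGM3, KAT14, SLPI, KRTAP24-1, CLDN18, SLC45A2, MINAR2, PCDHA6, PCDHB2, PCDHB5, MAS1L, HTR1B, FAM90A8, LOC101929601, TRIQK and OR5C1. Among them were 3 olfactory receptors, 3 clustered protocadherins, which are adhesion proteins of neurons, and 2 defensins, which are antimicrobial peptides. Defensin genes were not counted as a list, so no share stands beside these 2. Of the 25, 5 were on chromosome 20, which held 6.48% of all early-only peaks and 5.54% of the strict 6 h peaks. The share of all genes on it was not counted. A 24 h start peak in the whole deposited list was found for 5 of the 25: SLC22A12, OR3A1, CLDN18, HTR1B and FAM90A8. No 24 h start peak at any deposited IDR was found for the other 20.

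SLC22A12 (chr11:64590434-64593192) was the strongest early-only start peak with close summits, with replicate signals of 7.86 and 7.72. TGM3, a transglutaminase of the epidermis, had 4.95 and 8.16. OR5C1 had 5.97 and 6.40, and SLPI, a secreted protease inhibitor, had 5.89 and 6.35. CLDN18 (chr3:137998498-137999867) had 5.01 and 7.08, with coinciding replicate summits 16 bp from the start. FAM90A8, with 7.30 and 5.51, was the member of these 6 with a vehicle partner. Without the limit on summits, PCDHB5 was stronger, with 8.04 and 9.52.

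The late-only start peaks named here were the strongest among those with replicate summits at most 100 bp apart. This choice limits their gaps, which ran from 2 to 94 bp. RALGAPA2 (chr20:20712377-20713124) led with replicate signals of 20.8 and 27.3. POT1, which caps telomeres, had 21.2 and 25.3. HEMK2 (chr21:28884926-28885528) had 21.6 and 24.1.
The next were BPGM, the bisphosphoglycerate mutase of red cells, TCTN3, a ciliary transition zone protein, the pair MRPL50 and ZNF189, MTHFD2L, a mitochondrial folate enzyme, and SAMTOR. Their sums ran from 43.5 to 44.2. In each of these 8 peaks the second column was the higher one. A deposited 6 h peak below the strict threshold overlapped those of RALGAPA2, HEMK2, BPGM, MRPL50/ZNF189 and SAMTOR, so for these genes the absence at 6 h rests on the threshold. For POT1, TCTN3 and MTHFD2L no deposited 6 h peak did.

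**Figure D4:**
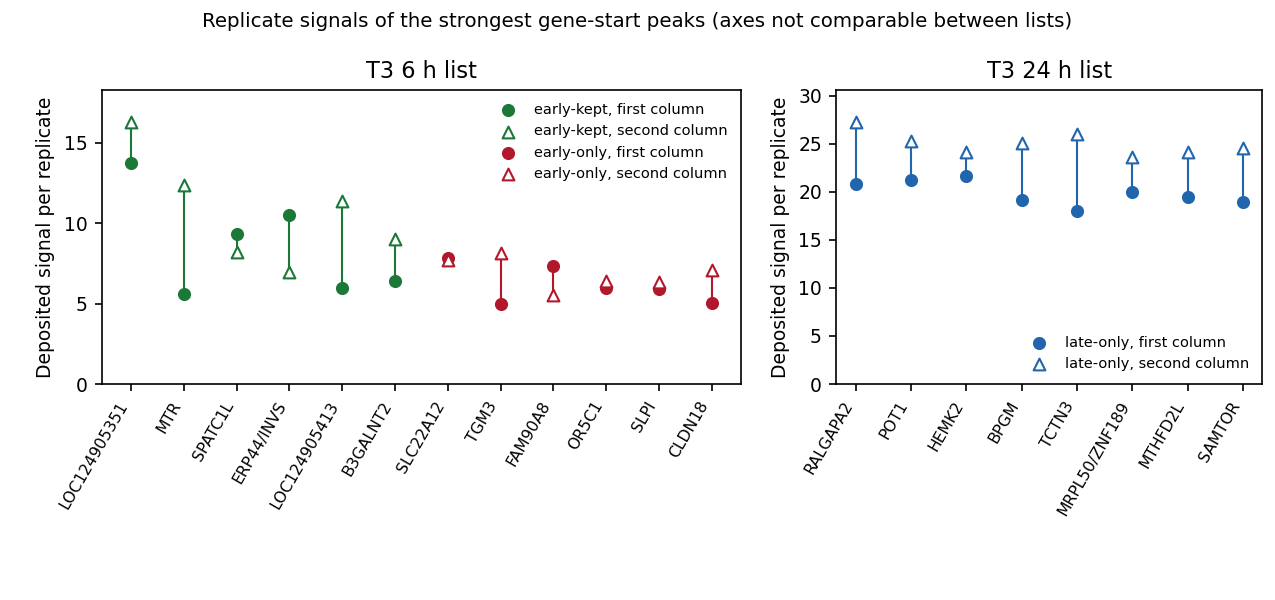
Deposited signal in the first (filled circle) and second (open triangle) replicate column, joined by a line, for the strongest start peaks of each class with replicate summits at most 100 bp apart, in the 6 h list (left) and the 24 h list (right). The second column is higher in each of the 8 late-only peaks, and the order is mixed among early ones. Both vertical axes start at 0, and their scales cannot be compared.

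Away from gene starts, the strongest early peaks were those of vehicle. The 3 strongest early-kept ones, at chr17:25920032-25920400, chr17:22521257-22521579 and chr13:109424128-109424340, had summed signals of 100.7, 90.1 and 86.8 and lay 362363 bp or more from a start. The nearest gene of the last was IRS2, an adaptor of insulin signalling. The 3 strongest early-only ones, at chr10:40340836-40343601, chr2:117023384-117023626 and chr7:59251226-59252042, had 27.1, 25.7 and 24.1. These 6 had vehicle partners. The strongest late-only ones had none: chr21:10014857-10015014 with 97.9, chr5:94569381-94569537 inside KIAA0825 with 90.8, and chr12:20551426-20551569 inside PDE3A, a cyclic nucleotide phosphodiesterase, with 62.3. These 3 were 158, 157 and 144 bp wide, against a late-only median of 691 bp.

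Late-only peaks gathered around some genes. When each peak was assigned to the nearest gene start within 100 kb, CRIM1, a membrane protein that binds bone morphogenetic proteins, had 22 late-only peaks and ZMIZ1, a transcriptional coactivator, had 21. SMAD3, the effector of TGF-β signals, had 17. CTIF, a translation factor of newly exported mRNA, had 16. No early peak was assigned to any of these 4 genes. They are long, from 129568 bp (SMAD3) to 324187 bp (CTIF), and the median gene had 1 late-only peak. Early peaks gathered less: MMEL1, a membrane metalloprotease, had 4 early-kept peaks, and COBL, an actin nucleator, and PTPN20, a tyrosine phosphatase, had 4 early-only peaks each.

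Genes of thyroid hormone signalling had start peaks mainly at 24 h, as all genes did (3.51% at 6 h and 54.2% at 24 h). Of 32 response genes, 1 had an early-kept and 13 a late-only start peak, so 43.8% had a 24 h peak (26.4 to 62.3), beside the 54.2% of all genes. HIF1A, the oxygen-regulated transcription factor, was the early-kept one (chr14:61694862-61695811), with replicate signals of 5.34 and 6.74 at 6 h. Its summits lay 94 bp apart, and its sum of 12.1 stood at percentile 49.4 of the 6 h list. Its 24 h partner had replicate signals of 11.6 and 14.5 at percentile 88.6 of the 24 h list. Among late-only members were TXNIP, an inhibitor of thioredoxin (12.8 and 17.1), SHBG, the sex hormone carrier (11.6 and 12.4), and KLF9, a T3-inducible transcription factor (9.66 and 8.92, summits 655 bp apart).

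Of 26 genes that transport and read T3, 15 had a late-only start peak (57.7%, 36.9 to 76.6), close to the 54.2% of all genes with a 24 h one. A strict 6 h start peak was found for 0 of them, with an exact interval up to 13.2% that includes the 3.51% of all genes. ITGAV, the integrin αV, had replicate signals of 11.3 and 17.8, and TBL1X, a subunit of a corepressor complex, 12.9 and 15.6. The receptor genes THRA and THRB and the partner RXRA had no start peak in either strict list. THRB had 3 late-only peaks assigned to it within 100 kb and RXRA 4.

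Some thyroid identity genes had start peaks. Of 18 differentiation genes, 7 had one at 24 h (38.9%, 17.3 to 64.3), an interval that includes the 54.2% of all genes. PAX8 was the early-kept one (chr2:113277744-113279065), with replicate signals of 6.40 and 4.53 at 6 h, summits 494 bp apart, and percentile 13.2 of the list. At 24 h it had 5.59 and 7.13. The factors HHEX (12.1 and 7.19), NKX2-1 (6.21 and 4.86) and FOXE1 (9.63 and 6.26) and the thyrotropin receptor TSHR (10.1 and 14.1) had late-only start peaks. TG, which encodes thyroglobulin, the precursor of the hormone, had none in either strict list.

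Of 6 lists of markers of other cells, the intervals of the 24 h share lay below the 54.2% of all genes for muscle, hepatocyte and fibroblast genes and included it for endothelial, neuronal and immune genes. Of muscle genes 0 of 17 had one at either time, of hepatocyte genes 2 of 17, of endothelial genes 3 of 12, of fibroblast genes 3 of 14, of neuronal genes 4 of 15 and of immune genes 5 of 17, each at 24 h. Examples are CD8A (15.5 and 16.01) and SYT1 (14.2 and 17.5). Of 10 C cell genes, CHGB had an early-kept peak (6.98 and 3.99, summits 966 bp apart) and 3 had late-only ones, a 24 h share of 40% (12.2 to 73.8). Epithelial genes had 24 h start peaks in 7 of 20 cases and mesenchymal genes in 13 of 18, among them VIM (11.1 and 11.5), the intermediate filament vimentin. The intervals of these last 2 lists, 15.4% to 59.2% and 46.5% to 90.3%, include the 54.2% of all genes. Both had 0 strict 6 h start peaks, with intervals up to 16.8% and 18.5% that include the 3.51% of all genes.

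Most lists of genes that keep cells running had 24 h start peaks almost throughout, but glycolysis genes did not. All 31 proteasome and all 34 splicing genes had one, as did 36 of 37 DNA replication genes, 30 of 31 respiratory chain genes, 30 of 31 chaperones, 72 of 77 mitochondrial ribosomal genes and 53 of 58 ribosomal protein genes. The lower interval bounds of these 7 lists, 81.0% or above, exceed the 54.2% of all genes. Of 29 cell cycle genes 25 had one and of 22 housekeeping genes 19. Of 20 glycolysis genes 11 had one (55%, 31.5 to 76.9), an interval that includes the 54.2% of all genes. These counts also depend on list length: with the 24 h list held to its 3881 strongest peaks, 13 DNA replication, 14 ribosomal protein, 13 chaperone and 7 proteasome genes had one.

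At 6 h, chaperones stood highest among the lists. With 7 of 31 genes (22.6%, 9.59 to 41.1) they had the largest share with a strict 6 h start peak, against 3.51% of all genes, and all 7 were early-kept. HSPA4, an exchange factor for HSP70, had replicate signals of 5.08 and 11.3, and DNAJB9, a cochaperone of the endoplasmic reticulum, had 7.19 and 7.68. DNAJC3, of the same compartment, had 8.82 and 4.42 and was the member with a vehicle partner.
HSPH1, a relative of HSPA4, had 6.67 and 5.51, and HSPA9, the mitochondrial HSP70, had 6.12 and 5.93. CCT8 and CCT6A, subunits of the chaperonin that folds actin and tubulin, had 3.74 and 8.36, and 6.31 and 4.44. The replicate summits of HSPA9 lay 77 bp apart and those of the other 6 between 186 and 848 bp, so 1 chaperone gene was left with summits within 100 bp.

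DNA replication and splicing genes had 4 early-kept members each. Of the replication genes, FEN1, the flap endonuclease, had replicate signals of 3.94 and 8.51, and PCNA, the sliding clamp, 5.29 and 6.11. CDC45 and CDC6, which help to load and start the replicative helicase, had 5.06 and 6.04, and 4.74 and 6.03. Of the splicing genes, WBP11 had 6.25 and 8.27 and SRSF6 4.86 and 8.16, with SNRPD2 and PRPF8 the other two. Their 6 h shares, 10.8% (3.03 to 25.4) and 11.8% (3.30 to 27.5), have lower bounds under the 3.51% of all genes.

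Other housekeeping and signalling lists had few early genes. Ribosomal protein genes had 4 early-kept members, RPS14 (3.56 and 9.54), RPLP1 (4.24 and 8.08), RPL37 and RPL22. Regulators of mitochondria had 2, GABPB1, a subunit of the ETS-type factor GABP (3.69 and 12.9, summits 1111 bp apart), and TFB2M, a mitochondrial transcription factor (7.16 and 3.87). Their late-only members included GABPA, the DNA-binding subunit of the same factor (20.2 and 18.6). NDUFA2 of complex I (4.85 and 6.08), PSMA5 of the proteasome (4.62 and 5.94) and DUSP6, a phosphatase that restrains ERK (5.15 and 5.81), were the early-kept members of their lists. The early-kept peak of CDK2, with 5.91 and 5.39, lay by the higher-coordinate boundary of the gene. The start of CDK2 is among those not known here, so this may be the far end of the gene. Being early-kept, the peak overlapped a strict 24 h peak. The strongest strict 24 h peak by either boundary lay by the lower one.

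Of 31 SWI/SNF genes 1 had an early-kept and 21 a late-only start peak. The 24 h share of 71.0% (51.96 to 85.8) and the 6 h share of 3.23% (0.0816 to 16.7) have intervals that include those of all genes, 54.2% and 3.51%. ACTL6A, the actin-related subunit, was the early-kept one (chr3:179562646-179564096), with replicate signals of 4.49 and 7.24 at 6 h and summits 814 bp apart. Its 24 h partner had 14.3 and 19.1, with summits 50 bp apart. The ATPase gene SMARCA4 had late-only signals of 8.08 and 9.71 and ARID1A, a subunit of the BAF form of the complex, 5.17 and 6.52. DPF3 (11.8 and 15.1) and SMARCC1 (11.1 and 13.01) were the strongest late-only members. Among 27 other remodellers, CHD1 (5.06 and 6.49, summits 14 bp apart) and SMARCA5, the ISWI-type ATPase (5.80 and 4.72, summits 4 bp apart), were early-kept, and 20 were late-only, led by CHD6 (20.7 and 20.6).

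Families that are silent in most cells had few 24 h start peaks beside the 54.2% of all genes. Of 392 olfactory receptor genes, 3 were early-only, 0 early-kept and 7 late-only (1.79% with a 24 h start peak, 0.721 to 3.64). Of 53 clustered protocadherins, 2 were early-kept (PCDHGC3 and PCDHAC1), 3 early-only and 5 late-only. At 6 h these 5 early protocadherins were 9.43% (3.13 to 20.7), an interval that includes the 3.51% of all genes, and early-only genes were 0.125% of all genes. Of 94 keratin-associated protein genes, 1 was early-only (KRTAP24-1, 7.11 and 6.49) and 8 late-only. These 3 families were the lists with any early-only gene. Zinc finger genes named ZNF, many of which repress transposons, had 20 early-kept and 330 late-only members of 477, and 73.4% (69.2 to 77.3) had a 24 h peak. ZNF131 (6.74 and 8.67) and ZNF337 (7.06 and 7.21) were the strongest early-kept ones.

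**Figure D5:**
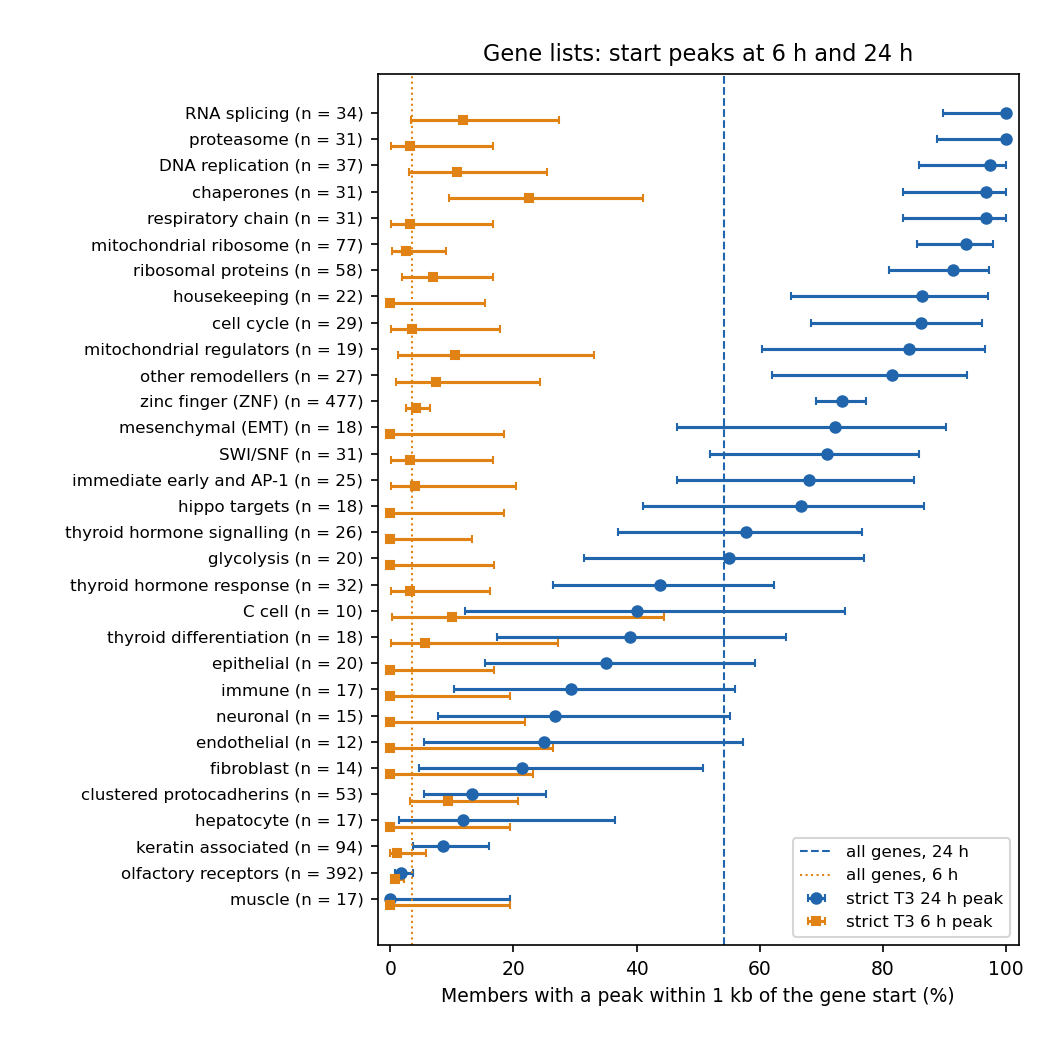
Share of genes (%, horizontal axis) with a strict start peak in the 24 h list (circles) and the 6 h list (squares) for 31 gene lists, with exact 95% intervals, ordered by the 24 h share. Dashed and dotted lines mark all 19970 genes at 54.2% and 3.51%. Most housekeeping functions are at the top, glycolysis is near the 24 h line of all genes, and olfactory receptors and muscle genes are at the bottom. Chaperones have the highest 6 h share, 22.6%.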

How the data were processed

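Nthy-ORI ATAC-seq, 6 samples in 3 groups, is represented by 3 peak lists, 1 per group, made by the authors from both replicates. Per the submitters' processing notes CASAVA 1.7, Trim Galore, Bowtie2, MACS2 and DiffBind were used with hg38. For settings, Tn5 shift, duplicates and blacklists, nothing is given in the sources used here. The deposited lists give the −log10 IDR, the summed signal and the signal and summit of each replicate, in the IDR layout. Signal normalisation is not stated, and the deposited signal was ranked only within a list. Replicate columns carry no sample name. Depth is unknown.

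Intervals were computed with scipy 1.17.1, overlaps with pandas 2.3.3 and numpy 2.4.6 (Python 3.11.15), and figures with matplotlib 3.10.9. Overlaps differed from those of bedtools 2.31.1 for 0 of 3881 peaks. Tested on simulated data for this comparison, the code found 100% of 500 planted overlaps. Genes, promoters and sequences came from RefSeq (GRCh38.p14). The peaks and the 31 gene lists were chosen with earlier results of these data known. Named were the strongest peaks of each class at starts (6, 6 and 8) and elsewhere (3 each) with summits within 100 bp, up to 2 genes per list and class, genes with most peaks nearby, and 15 thyroid, hormone and remodeller genes. Other list members that were early, and the 25 early-only genes, were named after their values were seen. Some genes that this rule selects are not reported here.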

Additional observations from a re-analysis of the deposited data

How the results depend on the processing

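Values are given as early-kept, early-only and late-only. Counts of peaks and genes not named for a setting stayed within 1.5 times the main count. Gene-start shares not named stayed within the main 95% interval. Kept shares and member counts of gene lists are outside this rule, and several moved. Without an IDR threshold 14 of 31 chaperones had a 6 h start peak, beside 10.4% of all genes. Without peaks shared with vehicle, 31.9% of 6 h peaks away from starts were kept. Without an IDR threshold, 5926 peaks were early-kept and 6186 early-only, the late-only gene-start share was 17.4%, and 1996 genes were early-kept and 62 early-only. With a −log10 IDR of at least 3, there were 599 and 458 peaks, start shares of 12.4% (early-kept) and 29.2% (late-only), and 98 and 8 genes. Overlap of 50% of both peaks gave start shares of 28.8% (early-kept) and 2.69% (early-only), and the whole list of the other time as partner 22.9% (early-kept) and 21.8% (late-only). With summits within 100 bp there were 653 early-kept and 719 early-only peaks, start shares of 14.9%, 4.87% and 21.6%, and 120 early-kept and 40 early-only genes.
Holding the 24 h list to 3881 peaks by summed signal gave 490, 3391 and 3392 peaks, start shares of 43.7%, 10.6% and 40.8%, and 261, 439 and 1641 genes. By the first replicate column these were 499, 3382 and 3384 peaks, 42.9%, 10.6% and 41.5%, and 264, 436 and 1659 genes. By the second they were 464, 3417 and 3417 peaks, 43.8%, 10.9% and 38.8%, and 248, 452 and 1574 genes. The shorter list lowers the early-kept and late-only peak counts by construction. The start shares also rest on which 24 h peaks were held, here the strongest. The cause of their change and of the other changes was not tested. A start window of 500 bp gave shares of 22.3%, 0.768% and 20.3% and 13 early-only genes, and 2 kb gave 3.18% (early-only), 25.4% (late-only) and 46 early-only genes.
A further 3 settings were chosen after seeing the data. Known starts alone gave shares of 23.2% (early-kept) and 19.1% (late-only). Without peaks over 1 Mb from a start the early-kept share was 33.1%. Without peaks shared with vehicle, 1144 peaks were early-kept, with a start share of 44.7%. In every setting run, including these, 6 h peaks at gene starts were kept more often than peaks elsewhere: 90.2% against 53.8% at the stricter IDR, 73.5% against 44.8% with close summits, and 37.3% against 8.35% at equal length by summed signal. No setting allowed for how often a 24 h peak lies at any start, 54.2% of all genes in the main setting. Of 121 named genes, 70 to 121 stayed in their class, the fewest at equal length by the second column.

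No paired analysis was possible because each group has 1 list, replicate columns carry no number and no test was made. Leaving out a replicate was not run, since a listed peak needs both. Depth, signal scaling and mapping at centromeres are unknown, and absence from a list is not absence of open chromatin.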

Other observations

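MicroRNA hairpins gave a further set of loci. Of 1558 hairpins in RefSeq, 4 (0.257%) had an early-kept summit within 1 kb (MIR8075, MIR10396A, MIR611 and MIR3655), 4 (0.257%) an early-only one (MIR30C1, MIR4670, MIR4421 and MIR6500) and 175 a late-only one (11.2%). For protein-coding genes the early-kept, early-only and late-only classes held 3.37%, 0.125% and 50.8%. Hairpins near gene starts were not set apart, and no share of random positions was computed. MIR4421 and MIR6500 shared 1 early-only peak. MIR3655 and MIR611 lay in the early-kept peaks of NDUFA2 and FEN1, so they add no separate region.

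Replicate signals in the lists take repeated values. In the strict 6 h list 37.9% of peaks shared their exact first-column value with another peak and 21.9% their second-column value, and in the strict 24 h list 73.7% and 54.4%. The most frequent first-column value at 6 h, 4.26628, was held by 71 peaks.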
